A study of Mus musculus with 6 samples.

Results

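The genes described here encode proteins that coat, enlarge or shape lipid droplets: the 5 perilipins Plin1, Plin2, Plin3, Plin4 and Plin5, and Cidec, Bscl2 and Hilpda. They were taken by gene symbol from a table of 22322 genes. All 8 were present once, and all 8 passed the filter on low counts that left 13829 genes for testing. RNA sequencing had been done on epididymal fat, the large abdominal white fat depot beside the epididymis, in 3 wild type libraries and 3 from CD44 knockout (CD44 KO) mice. CD44 is a surface receptor for the matrix sugar hyaluronan, and the series asks what it does in white fat. Both genotypes had been fed a high fat diet for 17 weeks. The labels give a genotype for each library and no strain, age or knockout design. They do not say that the libraries of a group came from separate animals, so p-values measure the spread between these libraries only.

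A lipid droplet is a core of triglyceride and sterol ester under a single layer of phospholipid, and perilipins sit on that layer and control access of lipases. In white adipocytes perilipin 1 is the main coat protein, holding back basal lipolysis and permitting it once phosphorylated, and perilipin 4 is a further coat protein rich in fat tissue. Perilipin 2 and perilipin 3 coat droplets in most cell types, and perilipin 2 is well known from lipid-laden macrophages. Perilipin 5 belongs mainly to oxidative tissues. Cidec promotes the fusion of droplets into the single large droplet of a white fat cell, Bscl2 (seipin) organises droplet budding at the endoplasmic reticulum, and Hilpda inhibits the triglyceride lipase encoded by Pnpla2.

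Each library held between 15543317 and 18765009 expected counts. The targeted gene checked the labels: Cd44 stood at 44.1 to 144 FPKM in wild type and at 0.36 to 0.59 in CD44 KO. FPKM are fragment counts scaled for transcript length and library size, so they can be compared between genes. Defining markers of the labelled tissue were present, with 15 of 15 mature adipocyte markers tested and Adipoq (adiponectin) at a mean of 1454 CPM in wild type. CPM of single genes and of the summed perilipins are counts scaled to a common library size after TMM normalization. Summed CPM of marker lists are scaled by total counts alone. CD44 KO replicate 2 stood apart by epididymis transcripts: the summed level of 15 epididymis markers was 10530 CPM there, against 6.7 and 13.9 CPM in the other CD44 KO libraries and 1.2 to 1.9 CPM in wild type. CD44 KO replicate 1 stood apart by its macrophage transcripts, given below with Plin2.

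Positions are from GENCODE M21 (GRCm38), matched on gene identifier; the build the authors used is not stated. Plin4 (ENSMUSG00000002831, chromosome 17, 56100591 to 56109803) and Plin5 (ENSMUSG00000011305, chromosome 17, 56111601 to 56117596) are neighbours on the minus strand, 1798 bases apart. Plin3 (ENSMUSG00000024197) follows on the same strand from 56277476 to 56292873. Plin1 (ENSMUSG00000030546, minus strand) spans chromosome 7 from 79720218 to 79732903 and Plin2 (ENSMUSG00000028494, minus strand) chromosome 4 from 86648386 to 86670060. Cidec (ENSMUSG00000030278, minus strand) and Hilpda (ENSMUSG00000043421, plus strand) are both on chromosome 6, from 113424634 to 113435760 and from 29272488 to 29275446. Bscl2 (ENSMUSG00000071657, plus strand) spans chromosome 19 from 8837467 to 8848683.

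Promoter sequence is shown for the members with the largest differences between genotypes, the pair with higher levels in CD44 KO (Plin1, Plin4) and the pair with lower levels (Plin2, Hilpda). Each stretch is the part of the 250 bases before the RefSeq start (GRCm38.p6) that lies outside the GENCODE gene, read 5′ to 3′ on the gene's strand. Capitals mark matches to the motifs named after them.
Plin1, chr7:79732904-79733026, minus strand: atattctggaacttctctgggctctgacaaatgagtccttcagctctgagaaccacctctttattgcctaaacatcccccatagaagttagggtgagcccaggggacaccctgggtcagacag
Plin4, chr17:56109804-56110032, minus strand: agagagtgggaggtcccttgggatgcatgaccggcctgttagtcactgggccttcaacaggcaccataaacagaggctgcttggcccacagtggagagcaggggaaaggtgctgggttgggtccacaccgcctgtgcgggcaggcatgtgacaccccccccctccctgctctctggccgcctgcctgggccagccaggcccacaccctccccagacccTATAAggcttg
Plin2, chr4:86670061-86670309, minus strand: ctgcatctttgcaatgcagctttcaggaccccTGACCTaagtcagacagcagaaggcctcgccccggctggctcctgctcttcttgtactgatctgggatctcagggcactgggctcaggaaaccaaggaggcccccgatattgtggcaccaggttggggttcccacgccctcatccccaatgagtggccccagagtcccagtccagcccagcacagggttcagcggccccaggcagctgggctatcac
Hilpda, chr6:29272238-29272487, plus strand: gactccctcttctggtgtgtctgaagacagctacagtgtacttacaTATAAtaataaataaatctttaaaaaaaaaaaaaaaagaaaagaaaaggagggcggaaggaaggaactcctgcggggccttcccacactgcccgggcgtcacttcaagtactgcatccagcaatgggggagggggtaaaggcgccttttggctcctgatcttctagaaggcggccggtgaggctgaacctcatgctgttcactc

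All 13 RefSeq windows of the 8 members were searched on both strands over 250 bases before the start. The hexamer of nuclear receptor sites, AGGTCA, was found in 3 of the 13 windows (of Plin2, Plin5 and Bscl2), and 14.0% of all 32851 windows of this length hold it. In Plin2 the match is on the opposite strand, 218 bases before the start. The core of hypoxia-inducible factor sites, ACGTG, was found in 1 of the 13 windows, that of Hilpda before its second RefSeq start, and in 16.6% of all windows. The E-box, CACGTG, which holds that core, was found in 0 of the 13 windows and in 6.02% of all windows. The core of the TATA box, TATAA, was found in 4 of the 13 windows (of Plin4, Plin5, Bscl2 and Hilpda) and in 22.8% of all windows. The neighbours Plin4 and Plin5 hold it at 32 and 27 bases before the start, shown here with the match of Hilpda because these are the matches nearest to a start. These short stretches lie before a RefSeq start but were not limited to bases outside the GENCODE gene. Those of Plin5 and Hilpda lie inside it, and that of Plin4 reaches into it.
Plin4, chr17:56109797-56109826, minus strand: ctccccagacccTATAAggcttggggattg
Plin5, chr17:56117558-56117587, minus strand: acccagacctgcTATAAggacggagggctg
Hilpda, chr6:29272571-29272600, plus strand: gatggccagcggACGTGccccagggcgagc
These matches describe letters only and identify no binding site.

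Across the members, Plin1 and Plin4 were higher in every CD44 KO library than in any wild type library, and Plin2, Hilpda and, narrowly, Plin3 were lower in every CD44 KO library. Cidec, Bscl2 and Plin5 overlapped between the genotypes. These are 2 and 3 of 8 members, where 19.7% of all tested genes were higher and 18.1% lower without overlap (37.8% in either direction). None of the 8 passed the edgeR quasi-likelihood test at a Benjamini-Hochberg adjusted p under 0.05, a threshold that 2.62% of tested genes passed. At an unadjusted edgeR p under 0.05 there were 2 higher and 3 lower members, where 16.3% and 14.7% of tested genes were that low (31.0% together). DESeq2 called 4 members (Plin1, Plin4, Plin2, Hilpda) against 19.0% of its tested genes (9.62% higher and 9.38% lower). The same 4 had an adjusted p under 0.05 in the authors' deposited table, 2 higher and 2 lower, beside 6.07% higher and 5.94% lower over all genes of the authors' deposited table. The median log2 fold change of the 8 was -0.13, and that of all tested genes was 0.03.

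**Figure D1:**
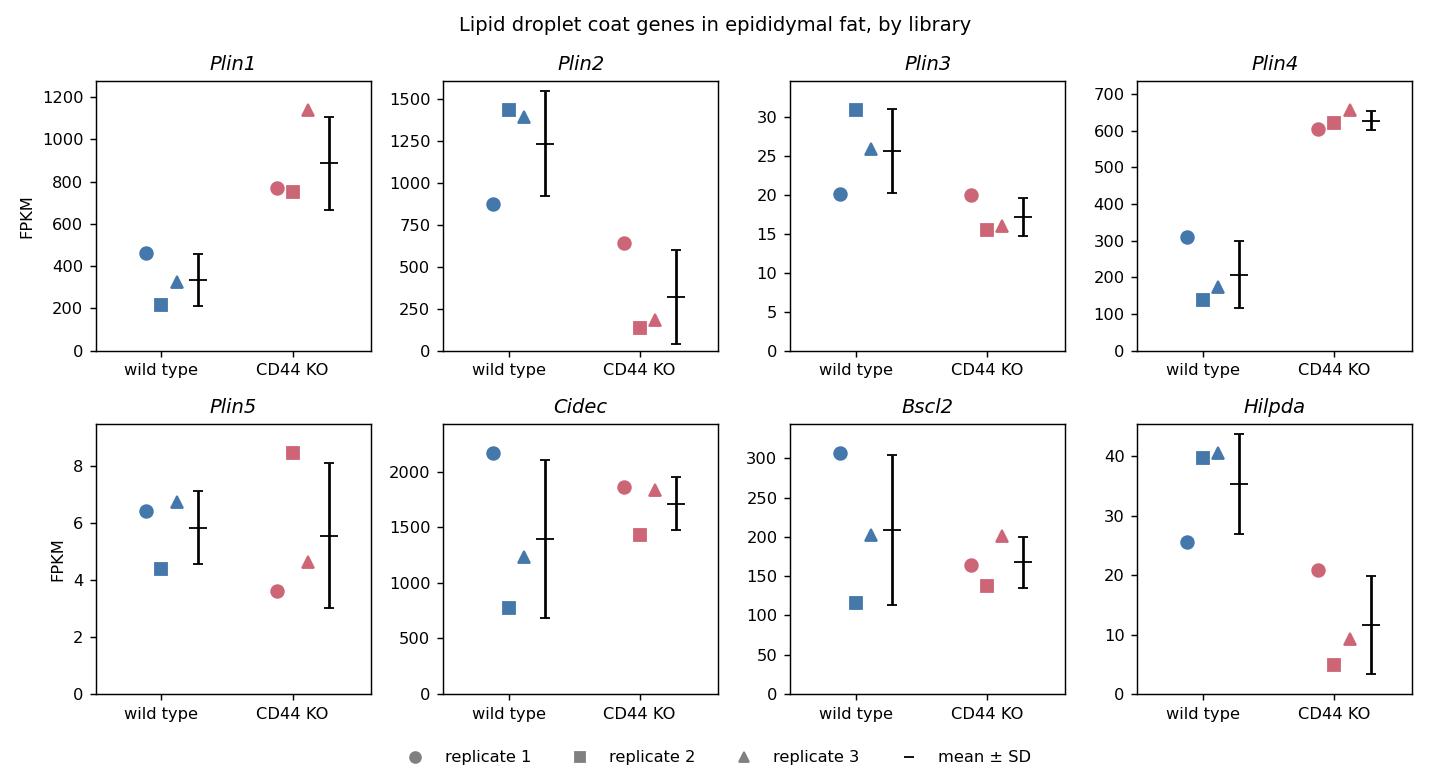
FPKM of each member in the 3 wild type (blue) and 3 CD44 KO (red) libraries, with a marker shape per replicate and the mean ± SD in black (y axis in FPKM from 0, a scale per panel). Plin1 and Plin4 sit higher and Plin2 and Hilpda lower in all CD44 KO libraries, and Cidec, Bscl2 and Plin5 overlap.

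Plin1 had 464, 218 and 324 FPKM in wild type replicates 1 to 3 and 770.0, 750.4 and 1139 FPKM in CD44 KO replicates 1 to 3. The lowest CD44 KO library lay well above the highest wild type library. The edgeR log2 fold change was 1.59 (SE 0.37), or 3.00-fold with a 95% interval from 1.62 to 5.58, with an edgeR adjusted p of 0.0686. By mean FPKM Plin1 was the 219th most abundant gene in wild type and the 54th in CD44 KO.

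Plin4 had 309.9, 139 and 174 FPKM in wild type and 605, 620.3 and 656 FPKM in CD44 KO. Its CD44 KO libraries lay close together (627 ± 26.2 FPKM, SD, n = 3), while wild type was spread (207 ± 90.4 FPKM, SD, n = 3) with replicate 1 highest. The log2 fold change was 1.67 (SE 0.34), or 3.17-fold (95% interval 1.79 to 5.63), with an edgeR adjusted p of 0.056, the lowest of the 8 members. limma on log2(FPKM + 1) gave a Plin4 log2 fold change of 1.68 with an adjusted p of 0.0463. Plin4 was the only member limma called, where it called 2.05% of tested genes higher and 1.47% lower (3.51% together). Plin4 overlaps Hdgfl2 on the opposite strand, and whether counting used strand is not given, but Hdgfl2 itself stood at 6.11 to 11.8 FPKM.

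Plin2 had 872, 1436 and 1392 FPKM in wild type and 642, 135 and 181 FPKM in CD44 KO. CD44 KO replicate 1 held over 3 times the level of either other CD44 KO library, and wild type replicate 1 was the lowest of its group. The log2 fold change was -1.93 (SE 0.60), a 3.80-fold lower level with a 95% interval from 1.39 to 10.4, and the edgeR adjusted p was 0.104. Without CD44 KO replicate 1 the log2 fold change was -2.87 with an edgeR adjusted p of 0.0206.

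Hilpda went along with Plin2 across the libraries. It had 25.6, 39.7 and 40.5 FPKM in wild type and 20.8, 4.87 and 9.30 FPKM in CD44 KO, again with wild type replicate 1 low and CD44 KO replicate 1 high within their groups. The log2 fold change was -1.57 (SE 0.51), a 2.97-fold lower level (95% interval 1.27 to 6.91), with an edgeR adjusted p of 0.108. Without CD44 KO replicate 1 it was -2.26 with an edgeR adjusted p of 0.0241. Pearson's r of log2 CPM between Hilpda and Plin2 was 0.987 over the 6 libraries, which include both genotypes.

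Plin3 differed little. It had 20.2, 30.9 and 25.9 FPKM in wild type and 20.0, 15.6 and 16.0 FPKM in CD44 KO, so that the highest CD44 KO library lay just under the lowest wild type one. Its log2 fold change was -0.53 (SE 0.20) with an edgeR adjusted p of 0.133.

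Cidec was the most abundant member in both genotypes, at 2169, 771 and 1237 FPKM in wild type and 1867, 1436 and 1836 FPKM in CD44 KO. The wild type libraries spanned the whole CD44 KO range. Its log2 fold change was 0.33 (SE 0.40, 95% interval -0.62 to 1.29) with an edgeR adjusted p of 0.588, so the interval holds both lower levels and levels up to 2.44-fold higher.

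Bscl2 had 307, 116 and 203 FPKM in wild type and 164, 137 and 201 FPKM in CD44 KO, with a log2 fold change of -0.26 (SE 0.35, 95% interval -1.10 to 0.58). Its groups overlapped, and without wild type replicate 1 the sign turned, to 0.13. Its expected counts are in part not whole numbers, and its locus overlaps a read-through gene on the same strand and Gng3 on the other. Its level is therefore uncertain to an extent that was not tested. Gng3 stood at 0 to 0.57 FPKM.

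Plin5 was the least abundant member, with 6.42, 4.38 and 6.74 FPKM in wild type and 3.60, 8.46 and 4.63 FPKM in CD44 KO. The highest of the 6 libraries was CD44 KO replicate 2, the library with epididymis transcripts, and the lowest was CD44 KO replicate 1. The log2 fold change was 0.00 (95% interval -0.92 to 0.92), and it stood at -0.49 without CD44 KO replicate 2. Plin4, 1798 bases away on the same strand, stood 3.17-fold higher. The difference between these neighbours was not tested.

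The order of the members by mean FPKM differed between the genotypes. In wild type it was Cidec (1392 ± 712), Plin2 (1233 ± 313), Plin1 (335 ± 123), Bscl2 (209 ± 95.3), Plin4 (207 ± 90.4), Hilpda (35.3 ± 8.39), Plin3 (25.7 ± 5.37) and Plin5 (5.85 ± 1.28 FPKM, SD, n = 3 throughout). Neighbours in this order overlapped except Plin2 and Plin1, Plin4 and Hilpda, and Plin3 and Plin5. In CD44 KO it was Cidec (1713 ± 240.5), Plin1 (886 ± 219), Plin4 (627 ± 26.2), Plin2 (320 ± 280), Bscl2 (167 ± 32.0), Plin3 (17.2 ± 2.47), Hilpda (11.7 ± 8.25) and Plin5 (5.56 ± 2.56 FPKM, SD, n = 3 throughout). There Plin4 and Plin2 overlapped, as did Plin2 and Bscl2, Plin3 and Hilpda, and Hilpda and Plin5.

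The perilipin family differed in makeup between the genotypes, and whether its summed level did depended on the unit. The FPKM of Plin1 to Plin5 summed to 1673, 1828 and 1922 in wild type and to 2041, 1530 and 1997 in CD44 KO, means of 1808 ± 126 and 1856 ± 283 (SD, n = 3), with an exact two-sided permutation p of 0.8. In CPM, which are not divided by length, the sums were 4494, 3969 and 4233 in wild type against 6632, 6275 and 7095, a ratio of means of 1.58 with no overlap (exact permutation p 0.1, the smallest possible). By FPKM, Plin2 took 52.1%, 78.5% and 72.4% of that sum in the wild type libraries and 31.5%, 8.85% and 9.08% in CD44 KO. Plin1 took 27.7%, 11.9% and 16.9% against 37.7%, 49.0% and 57.0%, and Plin4 18.5%, 7.60% and 9.04% against 29.7%, 40.5% and 32.9%. By FPKM Plin2 was the largest part in every wild type library and Plin1 in every CD44 KO library. By CPM, Plin4 was the largest part in every CD44 KO library (56.7%, 66.3% and 57.3%) and in wild type replicate 1 (41.4%, against 35.0% for Plin2), and the mean difference of the Plin1 share was 14.4 percentage points in place of 29.1. Of the summed CPM Plin2 took 35.0%, 64.2% and 58.3% in the wild type libraries, against 17.0%, 4.27% and 4.72%, so the lower share of Plin2 and the higher shares of Plin1 and Plin4 held in both units. Plin3 and Plin5 were small parts throughout, at 0.80% to 1.69% and 0.18% to 0.55% by FPKM. By CPM they took 0.82% to 2.80% and 0.11% to 0.31%. The shares of Plin1, Plin2, Plin3 and Plin4 did not overlap between genotypes, which with 3 against 3 libraries gives the smallest exact two-sided permutation p, 0.1. Adjusted over the 5 shares by Benjamini-Hochberg these stood at 0.125.

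**Figure D2:**
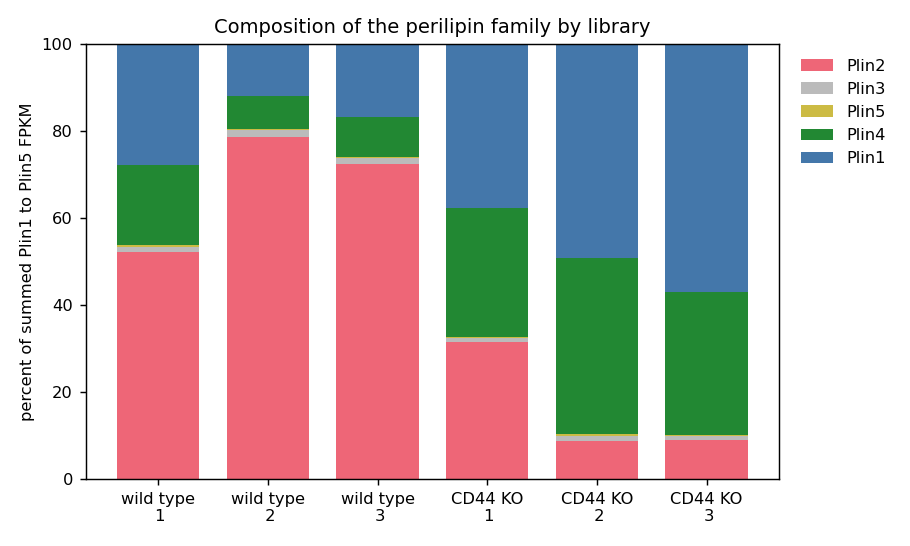
Share of each perilipin gene in the summed FPKM of Plin1 to Plin5 (y axis in percent), 1 bar per library. Plin2 (red) takes 52.1% to 78.5% in wild type and 8.85% to 31.5% in CD44 KO, and Plin1 (blue) and Plin4 (green) take most of the rest.

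Ratios within a library set the members against each other without the scaling between libraries, and 8 were computed. The log2 ratio of Plin2 to Plin1 was 0.91, 2.72 and 2.10 in the wild type libraries, and -0.26, -2.47 and -2.65 in those of CD44 KO, a mean difference of -3.70. Every wild type library had more Plin2 than Plin1, and every CD44 KO library had less. By contrast Plin4 to Plin1 averaged -0.71 ± 0.17 in wild type and -0.47 ± 0.28 in CD44 KO, with overlap (SD, n = 3), with an exact permutation p of 0.3. Cidec and Bscl2 lay lower against Plin1 without overlap: the mean log2 ratio was 1.99 in wild type and 0.97 in CD44 KO for Cidec, and -0.73 and -2.40 for Bscl2. For Plin3 and Plin5 the log2 ratio to Plin1 differed by -2.01 and -1.58 in CD44 KO, also without overlap. For the 6 ratios without overlap the exact two-sided permutation p was 0.1, the smallest possible here (0.133 after Benjamini-Hochberg over the 8 ratios). All of these but Hilpda to G0s2, given below, are ratios to Plin1, which was itself higher without overlap. They therefore hold that difference in common and are not separate results. The share of all genes that lie lower against Plin1 was not computed.

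A pair of these genes encodes inhibitors of the lipase of Pnpla2, Hilpda and G0s2. The log2 ratio of Hilpda to G0s2 was -2.92, -0.76 and -1.52 in the wild type libraries, and -3.76, -5.14 and -5.28 in those of CD44 KO. G0s2, the inhibitor typical of adipocytes, was the more abundant in every library, and its lead was larger in all 3 CD44 KO libraries. Cidea, a relative of Cidec typical of brown fat, stood at 1.07 to 3.98 FPKM over the 6 libraries, and its log2 ratio to Cidec did not differ beyond the spread (-9.33 ± 0.21 and -9.51 ± 0.56, SD, n = 3, exact permutation p 0.8).

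**Figure D3:**
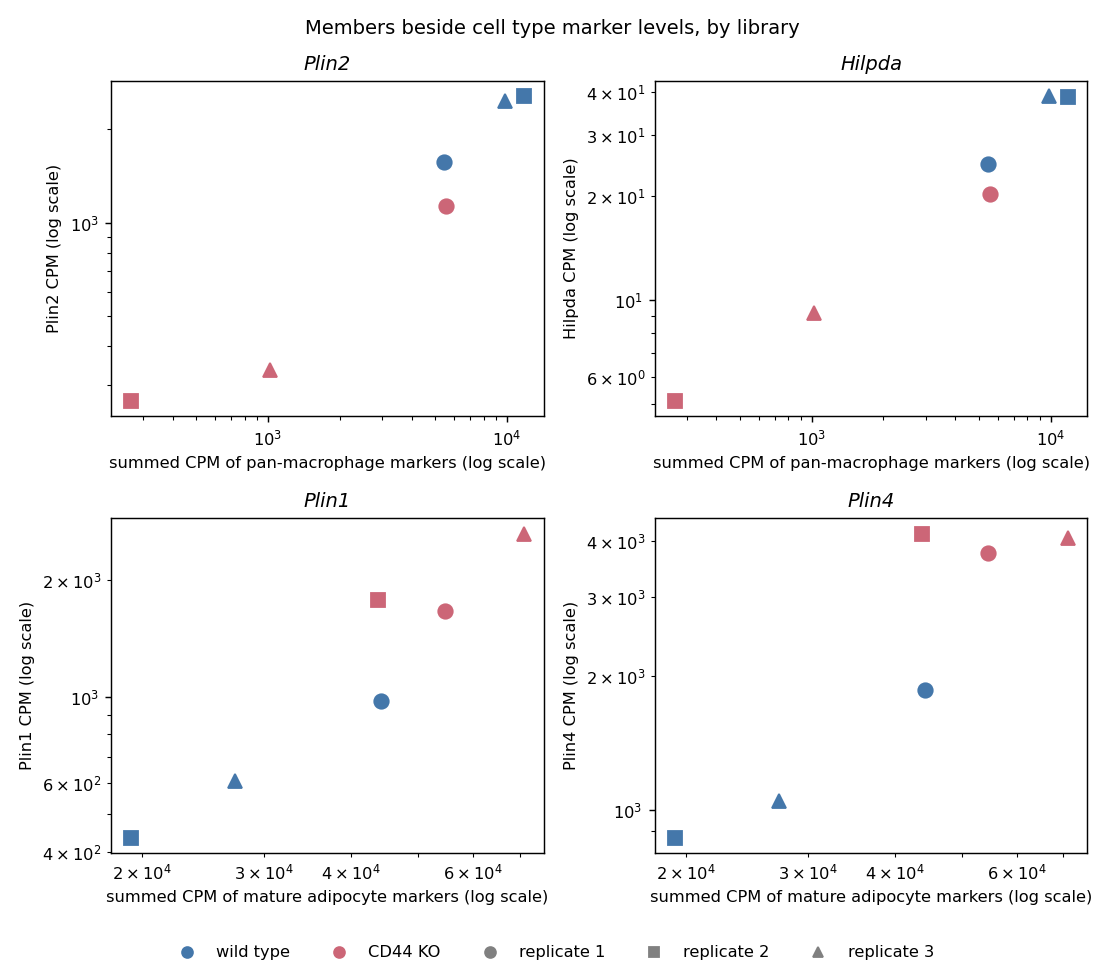
CPM of 4 members after TMM (y axis, log scale) beside the summed CPM of 15 marker genes in the same library (x axis, log scale). The summed CPM are scaled by total counts alone, with 1 point per library, wild type in blue and CD44 KO in red. CD44 KO replicate 1 (red circle) lies next to wild type replicate 1 (blue circle) in the Plin2 and Hilpda panels.

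The levels of macrophage and adipocyte markers are given beside the members whose libraries they resemble. The summed level of 15 pan-macrophage markers was 5458, 11810 and 9816 CPM in wild type and 5571, 268 and 1023 CPM in CD44 KO, so CD44 KO replicate 1 was level with wild type replicate 1. Plin2 followed the same order within CD44 KO, at 1129, 268 and 335 CPM, as did Hilpda at 20.2, 5.11 and 9.19 CPM. At the like macrophage levels of wild type replicate 1 and CD44 KO replicate 1, Plin2 stood at 1571 and 1129 CPM, a single pair with no replicate check. All 15 pan-macrophage and all 16 lipid-associated macrophage markers had negative log2 fold changes (medians -2.10 and -2.26), 0 of either list passed edgeR (4 and 9 were lower with the unadjusted edgeR p under 0.05, and DESeq2 called 4 and 10), and no marker was at 0 in all libraries. Without CD44 KO replicate 1 edgeR called 13 markers of either list lower, and it called 0 without any other single library. Cd68 and Trem2, macrophage markers, stood at log2 differences of -2.57 and -2.67, with adjusted p of 0.224 and 0.257 by edgeR. Of 14 fibroblast and progenitor markers 2 fell by edgeR (median -0.95), a count that ran from 0 to 6 with a library left out (6 without CD44 KO replicate 1) and was 8 by DESeq2. Of 12 mesothelial markers 1 rose by edgeR and all 12 were positive (median 2.68). DESeq2 called 9 of them, and the edgeR count was 4 without CD44 KO replicate 1 and 0 without any other library. Of 12 endothelial markers 0 passed (DESeq2 called 0 as well, and 0 had an unadjusted edgeR p under 0.05). The summed mesothelial level was 7.67 to 19.3 CPM in wild type and 101, 461 and 58.0 CPM in CD44 KO replicates 1 to 3. In CD44 KO replicate 2, the library with epididymis transcripts, the keratin gene Krt18 of this list stood at 221 CPM. It stood at 12.8 and 6.93 CPM in CD44 KO replicates 1 and 3. The part of macrophage and other transcripts in the Plin2 and Hilpda values was not tested. In RNA of whole tissue, fewer cells of a type and less RNA per cell cannot be told apart.

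Plin1 and Plin4 stood with the mature adipocyte markers, whose summed level was 44230, 19300 and 27260 CPM in wild type and 54600, 43800 and 71030 CPM in CD44 KO. Of 15 such markers 1 rose by edgeR (Cfd), 12 were positive and 3 negative, and the median log2 fold change was 1.29. DESeq2 called 9 higher and 1 lower. The edgeR count of higher markers was 6 when wild type replicate 1 was left out and 2 when CD44 KO replicate 1 was. It was 0 in the remaining 4 such fits. At like summed levels, in wild type replicate 1 and CD44 KO replicate 2, Plin1 stood at 977 and 1771 CPM and Plin4 at 1861 and 4158 CPM, again a single pair. The makeup of the 2 sums differed, with Lep at 4475 and 755 CPM and Cfd at 740 and 6802 CPM, so the pair is not matched marker by marker. Set against the mean log2 FPKM of these 15 markers in the same library, Plin1 stood at 0.54 ± 0.31 in wild type and 0.52 ± 0.15 in CD44 KO (SD, n = 3, exact permutation p 0.9). Plin4 stood at -0.17 ± 0.25 and 0.04 ± 0.31 on that scale (exact permutation p 0.5). Against Adipoq alone Plin1 was 0.34 higher in CD44 KO (log2 scale, exact permutation p 0.2), so its place depends on the markers chosen. The log2 fold changes of the markers themselves ran from -1.75 (Lep) to 4.30 (Adrb3) and 4.76 (Cfd), so the marker mean rests in part on the most changed markers. The log2 fold changes of Cidec and Bscl2 lay between those of the 3 negative and the 12 positive markers. Unlike Plin1 and Plin4, Cidec and Bscl2 lay lower against the marker mean in every CD44 KO library. Cidec stood at 2.41, 2.57 and 2.62 against 1.64, 1.58 and 1.24, and Bscl2 at -0.41, -0.16 and 0.01 against -1.87, -1.81 and -1.95. The differences of Plin2, Plin3 and Hilpda on this scale were -3.73, -2.03 and -3.28, with no overlap. For these 5 genes the exact permutation p was 0.1, the smallest possible, and 0.16 adjusted by Benjamini-Hochberg over the 8 comparisons. The marker list itself leaned higher in CD44 KO (median log2 fold change 1.29), so a gene of equal level in both genotypes also lies lower on this scale. The share of all genes that do so was not computed, and no trait particular to these 5 is read from it.

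Genes of droplet lipolysis, inhibitors included, leaned to higher levels in CD44 KO, as did the mature adipocyte markers (median log2 fold change 1.29). Lipe and Adrb3 are in both lists. All 10 tested genes of droplet lipases and their regulators were positive (median 0.89), and 1 rose by edgeR, Pde3b, a phosphodiesterase by which insulin restrains lipolysis (147 ± 52.9 to 467 ± 59.9 CPM, SD, n = 3, edgeR adjusted p 0.0461). Pnpla2, which encodes the first lipase of triglyceride breakdown, had 831, 372 and 572.5 FPKM in wild type and 1211, 1263 and 1568 FPKM in CD44 KO. Lipe, the hormone-sensitive lipase gene, had 470.4, 187 and 250 FPKM against 780.4, 723 and 1096 FPKM. Neither overlapped between the genotypes, and their log2 fold changes were 1.21 and 1.56 with edgeR adjusted p of 0.0904 and 0.0764. The coactivator gene Abhd5, whose product perilipin 1 holds back, stood at 0.49 (edgeR adjusted p 0.208), and G0s2 at 1.15 (0.136). With single libraries left out Pde3b passed in 2 fits of 6, those lacking replicate 1 of wild type or of CD44 KO. It did not pass without the filter on low counts (edgeR adjusted p 0.0549).

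Genes of droplet formation at the endoplasmic reticulum held 2 of the 4 other droplet genes that passed. Of 16 tested, 2 rose and 0 fell by edgeR (10 positive, 6 negative, median 0.38). Tmem159 (also Ldaf1), whose protein works with seipin where droplets form, had 16.6, 15.1 and 14.2 FPKM in wild type and 34.4, 46.5 and 40.8 FPKM in CD44 KO, and differed by 1.46 on the log2 scale (SE 0.18, edgeR adjusted p 0.0266). It rose while its partner Bscl2 stood at -0.26. Gpat4, a glycerol-phosphate acyltransferase that moves onto growing droplets, rose from 103 ± 16.8 to 268 ± 51.4 CPM (SD, n = 3, log2 fold change 1.38, edgeR adjusted p 0.039). Fitm2, which helps droplets bud, stood at 1.11 with an edgeR adjusted p of 0.0784. With single libraries left out Tmem159 passed in 3 fits of 6 and did not when wild type replicates 2 or 3 or CD44 KO replicate 3 were lacking. Gpat4 passed in 2 of 6, those lacking replicate 1 of either genotype.

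Among 24 other droplet-associated proteins the directions were even, with 12 positive and 12 negative (median -0.03), and edgeR called 1, lower. It was Lss, an enzyme of cholesterol synthesis found on droplets, at 33.4 ± 4.28 CPM in wild type and 14.5 ± 2.97 CPM in CD44 KO (SD, n = 3, edgeR adjusted p 0.0403), passing in 1 of 6 fits with a library left out, the one lacking CD44 KO replicate 1, and not passing without the filter on low counts (edgeR adjusted p 0.0501). Over these 3 lists 3 of 50 tested genes rose and 1 fell, where 1.74% of all tested genes rose and 0.882% fell. Of the same genes DESeq2 called 11 higher and 5 lower, where it called 9.62% of all its tested genes higher and 9.38% lower. When wild type replicates 2 or 3 or CD44 KO replicate 3 were left out, edgeR called 0.

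**Figure D4:**
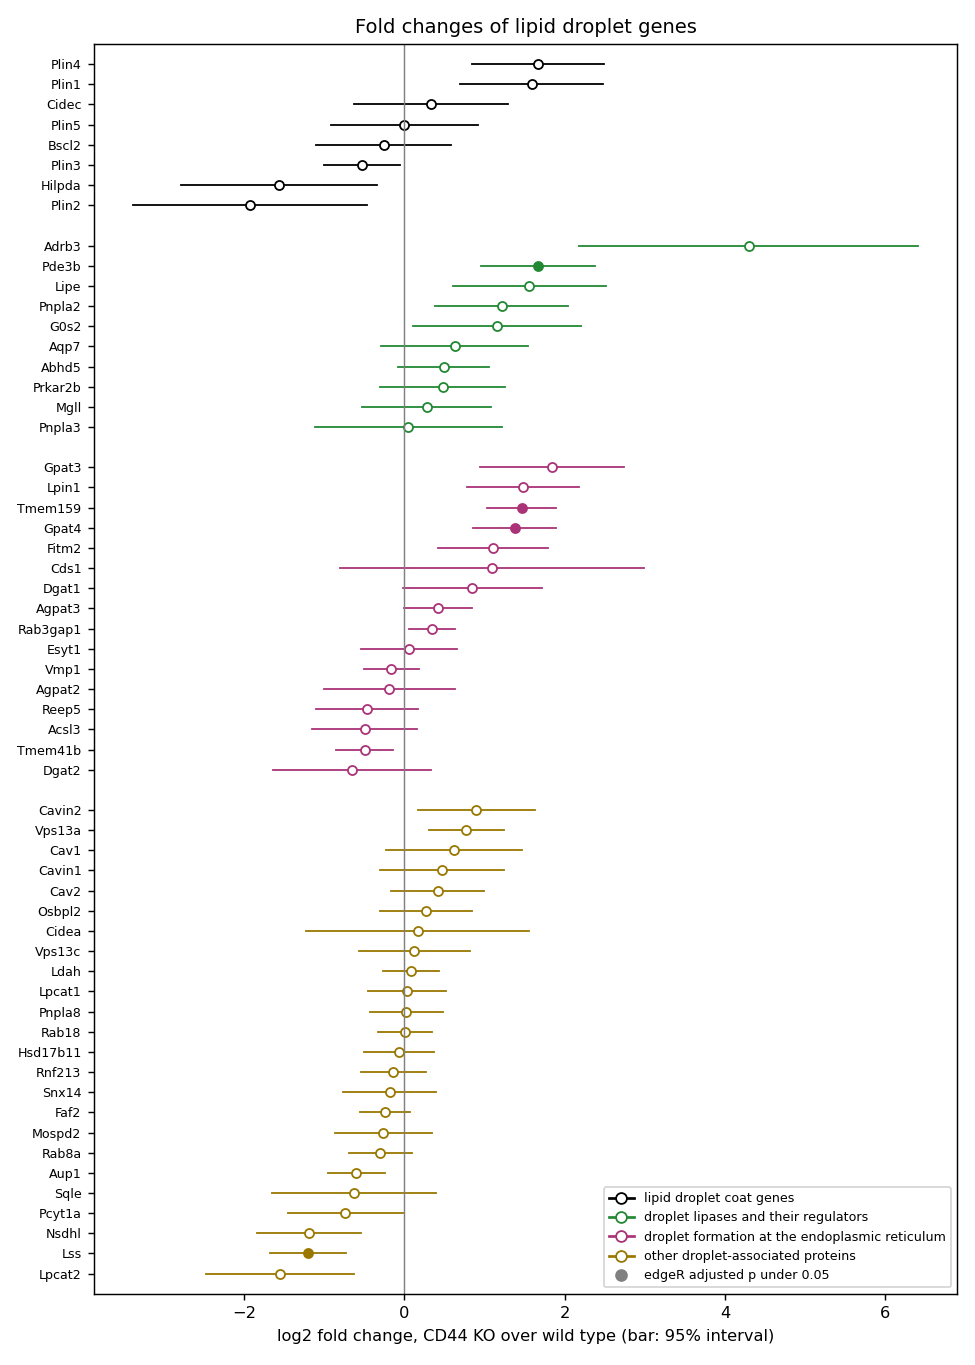
log2 fold change of CD44 KO over wild type (x axis) with its 95% interval for the 8 members and the 50 other droplet genes, grouped and coloured by list, with filled points for an edgeR adjusted p under 0.05. No member is filled, and the filled points are Pde3b, Tmem159, Gpat4 and Lss.

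Targets of PPAR, the nuclear receptors that bind fatty acids and are known to drive perilipin genes in fat, showed no common direction: of 19 tested, 10 were positive and 9 negative (median 0.04), and edgeR called 2 higher and 1 lower. Pck1, a gene of glyceroneogenesis, rose (log2 fold change 3.45), and Cpt1b, which brings fatty acids into mitochondria, fell by 2.54 on the log2 scale. The hypoxia response, in which Hilpda is a known target, was mixed as well. Of 19 tested genes 10 were positive and 9 negative (median 0.00), and the 2 that edgeR called, Ndrg1 and Vegfa, rose (log2 fold change 1.40 and 1.95), the opposite sign to Hilpda. Next by p, Pfkfb4, which encodes a regulator of glycolysis, had the sign of Hilpda without overlap (log2 fold change -2.22, edgeR adjusted p 0.0522). Bnip3 had the opposite sign without overlap (log2 fold change 1.25, edgeR adjusted p 0.0887). In this list DESeq2 called 2 lower, limma 1, and edgeR without CD44 KO replicate 1 called 4 lower. Pck1, Cpt1b, Ndrg1 and Vegfa all passed when CD44 KO replicate 1 was left out, and 0 of these 4 passed when wild type replicates 2 or 3 or CD44 KO replicate 3 were.

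For each member the genes of most similar pattern were sought among 11080 genes averaging 5 CPM or more, by Pearson's r of log2 CPM over the 6 libraries. They were Rbms2, Pfkfb1 and Csad for Plin1 (0.9984 to 0.9996), Nrg4, Aifm1 and Efna5 for Plin4 (0.9976 to 0.9996) and Ubtd1, Cd22 and Haus8 for Plin2 (0.9981 to 0.9995). For Hilpda they were Dse, Prcp and the macrophage marker gene Mrc1 (0.9982 to 0.9992), and for Cidec Rbp4, Slc2a12 and Trhde (0.9951 to 0.9958). The closest were Rbm19 for Plin3 (0.9993), Igfbp3 for Plin5 (0.9973) and Dhrs7b for Bscl2 (0.9924). The 6 libraries span both genotypes, and these values are a description.

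**Figure D5:**
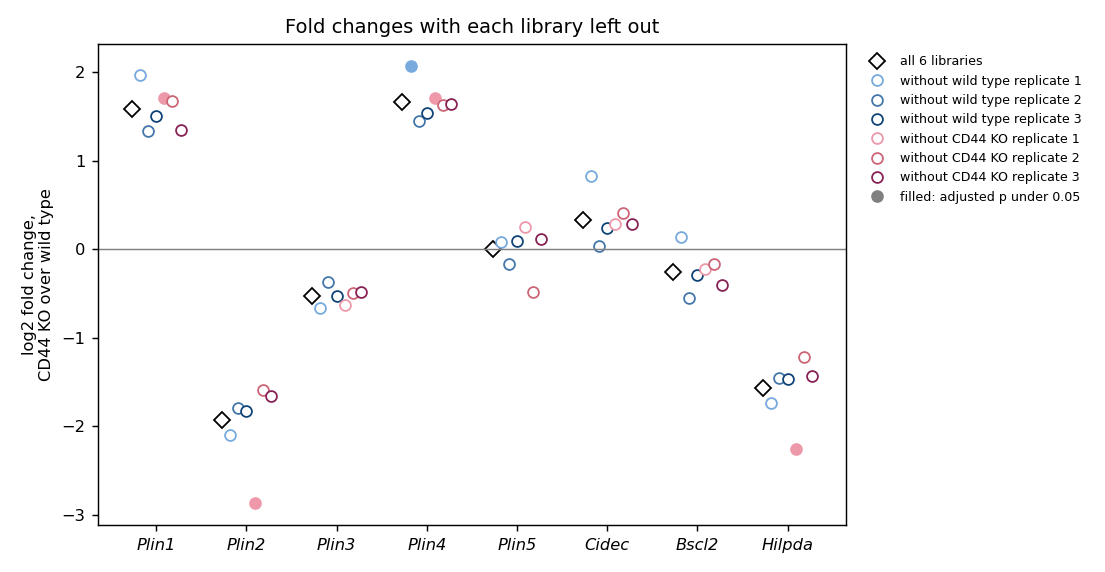
log2 fold change of each member (y axis) with all 6 libraries (black diamond) and with each library left out in turn (circles), filled where the edgeR adjusted p is under 0.05. Plin2 runs from -2.87 to -1.58, Plin4 from 1.45 to 2.07, and Plin5 lies on both sides of 0.

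Leaving out single libraries changed which members passed and not the sign of the 5 that did not overlap. Without CD44 KO replicate 1, Plin1, Plin4, Plin2 and Hilpda all passed (edgeR adjusted p 0.0445, 0.0411, 0.0206 and 0.0241), in a fit that called 16.8% of all tested genes (7.13% higher and 9.65% lower). Without wild type replicate 1, Plin4 alone passed (log2 fold change 2.07, edgeR adjusted p 0.0379), in a fit that called 1.74% of genes higher and 0.435% lower (2.18% together). In the fits without any 1 of the other 4 libraries 0 members passed. Those fits called few genes at all, 0.0633% without wild type replicate 2, 0.0% without wild type replicate 3, and 0.714% and 0.0493% when CD44 KO replicates 2 and 3 were lacking, so nothing about the members is read from them. Over all 6 fits Plin1 ran from 1.34 to 1.97. Cidec ran from 0.04 to 0.82, the highest without wild type replicate 1, its most abundant library.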

How the data were processed

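For each gene the authors deposited expected counts and FPKM in every library. Expected counts are estimated counts that were not scaled, and the FPKM were scaled for length and library size, per the file headers. A comparison table of the authors holds the same counts rounded, FPKM group means, log2 fold changes, p-values and adjusted p-values. The submitters' processing notes list RSEM, DESeq2, HISAT2 and StringTie 1.3.1 without roles. The build and annotation are not stated there.

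Expected counts were rounded and tested across the table with edgeR 4.0.16 in R 4.3.3 (filterByExpr, TMM, robust quasi-likelihood F-test, Benjamini-Hochberg over 13829 genes, called under 0.05). SE is the log2 fold change over the square root of F, and 95% intervals use the moderated degrees of freedom. Ratios, shares and levels against adipocyte markers used deposited FPKM and exact permutation over libraries. Alternatives were DESeq2 1.42.0, limma 3.58.1 on log2(FPKM + 1) or log2(FPKM + 0.1), DESeq2 size factors, no filter, no robust estimation, a replicate block and each library left out. The edgeR, DESeq2 and limma fits were checked on simulated counts with the same spread for every gene, limma on CPM in place of FPKM. The exact permutation tests were not part of that check.

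Members and lists were chosen with earlier results of these data known. Named genes were the members, called genes of the 3 droplet lists, fixed names, up to 4 genes of lowest p per other list and 3 genes of most similar pattern per member; not all are described, and 1 called gene of the PPAR target list is not reported here. Counting error limits low values, and PCR reads are not independent molecules.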

Additional observations from a re-analysis of the deposited data

How the results depend on the processing

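The log2 fold changes of Plin1, Plin2, Plin3, Plin4, Cidec and Hilpda kept their sign in all 13 alternatives. Plin5 ran from -0.49 to 0.25 (0.09 and 0.10 without wild type replicates 1 and 3, 0.25 and 0.12 without CD44 KO replicates 1 and 3), Bscl2 from -0.55 to 0.13 and Cidea from -0.23 to 0.84 (-0.18 without wild type replicate 2) when 1 library was left out. Members called higher and lower numbered 2 and 2 with DESeq2 and 1 and 0 with limma at either pseudocount, and ran from 0 to 2 each with a library left out. All genes called higher numbered 240 by edgeR, 145 without the filter and 1476 with DESeq2, and 0 to 1007 with a library left out. Those lower numbered 122, then 1439 with DESeq2, 203 and 206 with limma (pseudocount 1 and 0.1) and 0 to 1363. Other droplet genes called higher were 3, then 2 without the filter (Pde3b lost), 11 with DESeq2, 6 with limma at either pseudocount and 0 to 6 with a library left out. Those lower were 1, then 0 without the filter, 5 with DESeq2 and 0 to 3. With the replicate number as a block 0 genes were called in either direction, droplet genes and members included, where 2 members were higher and 2 lower at an unadjusted p under 0.05. Same-numbered libraries did not deviate together (correlations of -0.321, -0.218 and -0.0176 over genes), so the numbers were not taken as pairs. Against Adipoq alone Plin1 was 0.34 higher in CD44 KO in place of -0.02, and it ran from -0.1985 to 0.08317 with a library left out (above 0 when wild type replicates 2 or 3 or CD44 KO replicate 1 were lacking). The Cidea to Cidec log2 ratio differed by -0.17, from -0.448 to 0.1147 with a library left out, above 0 when CD44 KO replicate 1 was lacking. The summed perilipin level had a log2 ratio of means of 0.04 by FPKM and 0.66 by CPM, an alternative chosen after seeing the data, and ran from -0.03569 to 0.1594 with a library left out. The Plin5 share differed by -0.0043 percentage points, from -0.1205 to 0.0677 with a library left out. The cause of these changes was not tested.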
